A study of Mus musculus with 9 samples.

Results

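The genes described here make, process and package pulmonary surfactant in alveolar type 2 cells: Sftpa1, Sftpb, Sftpc, Sftpd, Abca3, Lamp3, Napsa, Slc34a2, Lpcat1 and Etv5. They were taken by gene symbol from a set chosen with earlier results of these data known, and are 10 of the 45777 genes of the deposited mouse table, with reads summed over their 19 transcripts. All 10 were among the 18716 genes that passed the filter on low counts. RNA-seq was performed on unsorted lung tissue of male C57BL/6N mice in 9 libraries, 3 per group. EA-BN-H mice were given lipopolysaccharide (LPS, a bacterial cell wall component) at 0.5 mg/kg with cigarette smoke condensate (CSC) at 12.5 mg/kg into the nose on days 1, 6 and 13, and a daily oral dose of EA-BN, the ethyl acetate fraction of Boehmeria nivea leaves, at 200 mg/kg in 2% DMSO from day 1 to day 14. COPD mice received the same LPS and CSC with oral vehicle (2% DMSO), and the group is a model of chronic obstructive pulmonary disease. NC mice, the normal controls, received intranasal PBS with the same oral vehicle, and all lungs were taken on day 15. The ages of the mice are not given in the sources used here, and nothing says whether each library came from its own mouse, so p-values measure only the spread between these libraries.

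Alveolar type 2 cells secrete a film of phospholipid and protein that lowers surface tension at the air-liquid interface and keeps alveoli open when the lung empties. The small hydrophobic proteins SP-B (Sftpb) and SP-C (Sftpc) spread the lipid at the surface, whereas the collectins SP-A (Sftpa1) and SP-D (Sftpd) bind microbes and particles and take part in surfactant turnover. Lipid and hydrophobic protein are stored together in lamellar bodies, are secreted, and are later taken back by the type 2 cell or broken down by alveolar macrophages, which need GM-CSF signalling to do so. The transcription factors NKX2-1 and FOXA2 bind in front of surfactant protein genes.

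The bases in front of the transcription start site are shown for 3 of the genes. Sftpa1 and Sftpb, both surfactant protein genes, had estimates of opposite sign in COPD lungs described later, and Lamp3 had the highest estimate of the 10. None of the 3 estimates passed an adjusted p under 0.05. RefSeq promoter entries (GRCm38.p6, the assembly of the mm10 table) were matched for 7 of the 10 genes, and the 250 bases before each start site were searched on both strands for CAAG, the core that NKX2-1 recognises, and for TGTTTAC or TGTTTGC, cores that FOXA factors recognise. Capitals mark these matches, including their reverse complements. The Sftpa1 stretch is chr14:41131538-41131787 on the plus strand, that of Sftpb is chr6:72304360-72304609 on the plus strand, and that of Lamp3 is chr16:19706366-19706615 on the minus strand.
Sftpa1: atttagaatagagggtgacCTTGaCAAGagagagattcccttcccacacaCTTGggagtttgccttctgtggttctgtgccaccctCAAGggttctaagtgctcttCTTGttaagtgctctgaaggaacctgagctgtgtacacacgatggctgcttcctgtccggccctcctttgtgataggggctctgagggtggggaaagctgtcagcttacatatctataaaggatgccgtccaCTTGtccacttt
Sftpb: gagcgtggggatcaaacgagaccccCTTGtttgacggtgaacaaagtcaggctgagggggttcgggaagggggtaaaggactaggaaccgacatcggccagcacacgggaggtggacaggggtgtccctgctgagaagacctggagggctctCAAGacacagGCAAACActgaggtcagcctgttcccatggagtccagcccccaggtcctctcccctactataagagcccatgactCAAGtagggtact
Lamp3: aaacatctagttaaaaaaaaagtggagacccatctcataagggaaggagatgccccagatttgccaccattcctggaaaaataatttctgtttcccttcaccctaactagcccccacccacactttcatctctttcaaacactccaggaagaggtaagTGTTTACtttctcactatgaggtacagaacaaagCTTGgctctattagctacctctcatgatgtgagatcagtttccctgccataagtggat
The Sftpa1 stretch held 6 CAAG matches and no FOXA match, the Sftpb stretch 3 CAAG matches and 1 FOXA match, and the Lamp3 stretch 1 CAAG match and 1 FOXA match. No FOXA match overlapped a CAAG match in these stretches. CAAG is short and occurred in 86.6% of all 32851 promoter stretches of this length, with a median of 2 matches, while a FOXA core occurred in 7.29%. Of these stretches, 6025 held 4 or more CAAG matches. Of the other genes, Abca3 had 2 CAAG matches, and each of 2 Etv5 start sites had 1, which at the second site overlapped a FOXA match. Lpcat1 and Slc34a2 had neither motif in this window. Sftpc, Sftpd and Napsa are named only. A match is a run of letters and was not tested as a binding site.

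Total counts were 25232402 to 42156219 per library, of which 7SL RNA took 32.5% to 63.5%, the highest share being in EA-BN-H replicate 3. The 10 genes held 1.14%, 0.743% and 0.715% of nuclear protein-coding counts in EA-BN-H, 1.30%, 1.06% and 1.02% in COPD, and 0.695%, 1.08% and 0.943% in NC. COPD replicate 1 was the highest library of its group for 9 of the 10 genes. EA-BN-H replicate 3 was the lowest of its group for 8, and NC replicate 1 was the lowest of its group for 9. The same NC library was low for other alveolar cells and high for airway cells. The summed CPM (counts scaled by TMM to a common library size) of 12 alveolar type 1 markers was 703 in NC replicate 1, against 1958 and 1623 in the other NC libraries, and that of 10 endothelial markers was 373, against 1102 and 1049. Markers of club cells, secretory cells of the small airways, summed to 35195 CPM in NC replicate 1, against 18340 and 13059. The ratio of club to alveolar type 1 marker counts was 6.00 to 18.1 in EA-BN-H, 4.19 to 8.95 in COPD, and 50.1, 9.37 and 8.05 in NC replicates 1, 2 and 3. For the 10 genes, estimates that moved with NC replicate 1, EA-BN-H replicate 3 or another single library are also given below without that library. Estimates and medians of the other gene lists are given from all 9 libraries only, and may also move with 1 library. The part of lung sampling in these results was not tested.

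**Figure D1:**
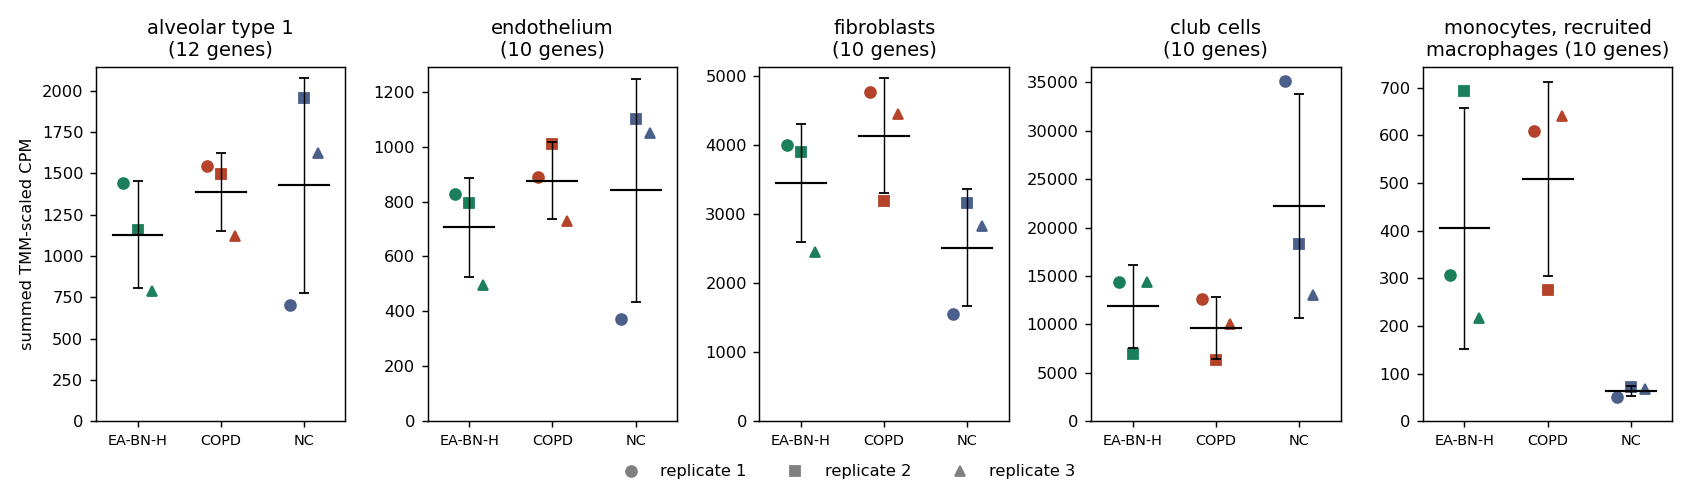
Summed TMM-scaled CPM of marker genes of alveolar type 1 cells, endothelium, fibroblasts, club cells and monocytes with recruited macrophages in each library, with EA-BN-H left of COPD and NC; marker shapes give the replicate, lines the mean and bars the SD (n = 3). NC replicate 1 is lowest of its group for the alveolar type 1, endothelial and fibroblast sums and highest for the club cell sum (35195 CPM), and monocyte markers are at 216 CPM or more in the exposed lungs, against 51.2 to 71.5 CPM in NC.

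On the length-scaled TPM of the deposited table, which allows genes to be compared with each other, Sftpc was the most abundant of the 10 in 7 of the 9 libraries. Sftpa1 led in EA-BN-H replicate 2 and Sftpb led in NC replicate 1. The 4 surfactant proteins filled the first 4 places in every library. Etv5 was last in all 9, at 1.58 to 4.94 TPM in EA-BN-H, 10.03 to 13.0 TPM in COPD and 2.94 to 8.70 TPM in NC. The mean Sftpc level was 252 ± 171 TPM in EA-BN-H, 773 ± 152 TPM in COPD and 594 ± 289 TPM in NC (SD, n = 3 each). Sftpa1 averaged 220 ± 113, 424 ± 118 and 275 ± 56.1 TPM in EA-BN-H, COPD and NC (SD, n = 3 each). Sftpb averaged 187 ± 70.4, 306 ± 7.12 and 407 ± 52.7 TPM, and Sftpd 192 ± 109, 363 ± 86.7 and 180 ± 43.0 TPM, in the same group order and with the same n. In every COPD library Sftpc lay above the other 3, and in every NC library Sftpb lay above Sftpa1 and both Sftpb and Sftpc above Sftpd, each with mean ± SD ranges that did not overlap. Sftpa1 lay above Sftpd in all 9 libraries, but with SD ranges that overlapped in each group. The other pairs changed order between libraries of a group. Because TPM shares the total with 7SL and other abundant RNA, comparisons between groups below use TMM-scaled counts.

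COPD against NC asks how LPS and CSC exposure moved these genes. By edgeR's quasi-likelihood test with Benjamini-Hochberg adjustment over all 18716 genes, 0 of the 10 were called at an adjusted p under 0.05, while 1.6% of all genes tested were. At an unadjusted p under 0.05, 2 of the 10 passed, Sftpd and Napsa, and 15.4% of all genes did. DESeq2 called 1 of the 10, Sftpd, and 7.51% of all genes for which it gave an adjusted p. The log2 fold change was positive for 9 of the 10, with a median of 0.56, whereas 48.6% of all genes were positive with a median of -0.02. Without NC replicate 1 the median of the 10 was 0.29. In unsorted lung tissue, a different number of type 2 cells and a different amount of RNA per type 2 cell cannot be told apart, whether levels are higher or lower.

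The 2 collectins lay on the higher side in COPD lungs. Sftpd had 684, 565 and 370 CPM in EA-BN-H, 781, 538 and 701 CPM in COPD, and 288, 475 and 302 CPM in NC. All 3 COPD libraries lay above all 3 NC libraries, and the EA-BN-H libraries overlapped both groups. The Sftpd log2 fold change of COPD against NC was 0.92 (SE 0.31), or 1.90-fold, with a p of 0.0145 and an edgeR adjusted p of 0.186. DESeq2 gave an adjusted p of 0.0337, which is the only call for any of the 10 genes under any count model used. Sftpa1 had 1743, 1244 and 1016 CPM in EA-BN-H, 2065, 1190 and 1701 CPM in COPD, and 1294, 1196 and 887 CPM in NC. COPD replicate 2 lay among the NC libraries, so the groups overlapped, and the log2 fold change was 0.55 (SE 0.32, edgeR adjusted p 0.463).

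Sftpb, whose product is required for breathing at birth, went the other way. It had 844, 506 and 675 CPM in EA-BN-H, 765, 685 and 572 CPM in COPD, and 815, 1135 and 868 CPM in NC. Every COPD library lay below every NC library, while EA-BN-H replicate 1 reached into the NC range. The log2 fold change of COPD against NC was -0.48 (SE 0.28, p 0.114, edgeR adjusted p 0.458). It was -0.57 without NC replicate 1, the library with low levels of most other type 2 genes. For EA-BN-H against NC, a comparison that shares the NC libraries, the Sftpb log2 fold change was -0.48 (SE 0.28, edgeR adjusted p 0.499).

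Sftpc, which among lung cells is made by type 2 cells, varied most among libraries of the surfactant proteins. It had 806, 234 and 398 CPM in EA-BN-H, 1226, 884 and 597 CPM in COPD, and 296, 974 and 879 CPM in NC. COPD and NC overlapped, and the low NC value was that of NC replicate 1. The log2 fold change of COPD against NC was 0.33 (SE 0.53, edgeR adjusted p 0.835) and was -0.04 without that library. The biological coefficient of variation fitted to Sftpc was 0.448, against 0.244 for Sftpb, 0.272 for Sftpa1 and 0.276 for Sftpd.

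**Figure D2:**
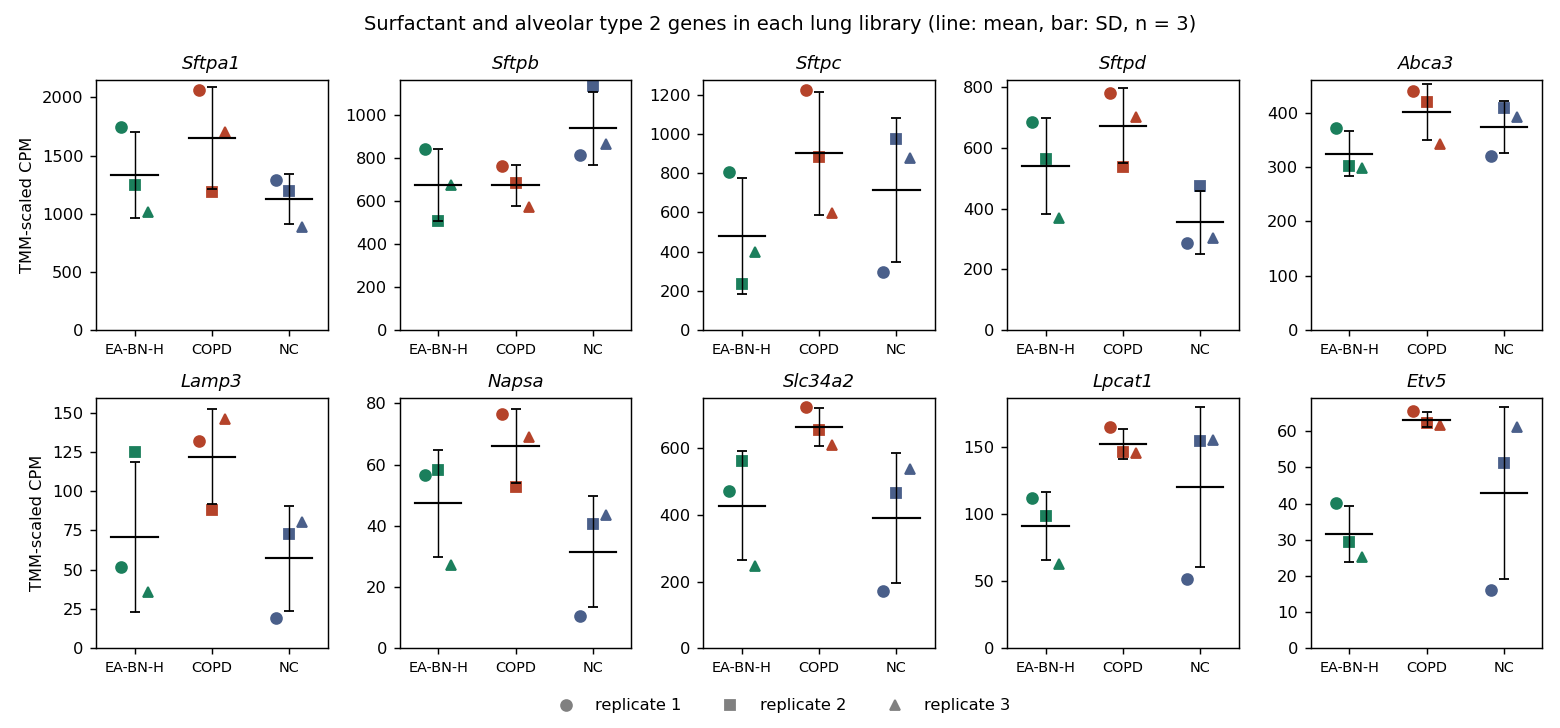
TMM-scaled CPM of the 10 genes in each library, with EA-BN-H left of COPD and NC and replicates 1 to 3 as circle, square and triangle; lines are means and bars SDs (n = 3). Sftpd, Lamp3, Napsa, Slc34a2 and Etv5 show no overlap of COPD over NC, Sftpb is lower in COPD than in NC, and NC replicate 1 is the low point of its group in 9 panels.

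Genes of protein processing and the lamellar body followed. Napsa, which encodes the aspartic protease napsin A that trims SP-B precursor, had 56.6, 58.4 and 27.3 CPM in EA-BN-H, 76.5, 52.7 and 69.0 CPM in COPD, and 10.7, 40.6 and 43.5 CPM in NC. All COPD libraries lay above all NC libraries. Its log2 fold change was 1.07 (SE 0.47, p 0.0467, edgeR adjusted p 0.314), so on these unshrunken edgeR estimates Napsa was the 1 gene of the 10 past the thresholds of the study, an unadjusted p under 0.05 with a log2 fold change of 1 or more in size, which 9.46% of all genes passed. With the shrunken DESeq2 fold changes that the study's methods name, the Napsa estimate was 0.74 and 0 of the 10 passed. None passed either with library totals, nuclear protein-coding genes only, a mean CPM of at least 1 or a replicate block, and without NC replicate 1 the Napsa estimate was 0.65. Abca3, the transporter that loads phospholipid into lamellar bodies, had 372, 302 and 298 CPM in EA-BN-H, 439, 420 and 342 CPM in COPD, and 319, 409 and 393 CPM in NC. Its log2 fold change of COPD against NC was 0.10 (SE 0.22, edgeR adjusted p 0.889), and its coefficient of variation of 0.212 was the lowest of the 10.

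Lamp3, a glycoprotein of the lamellar body membrane that mature dendritic cells also make, had 51.5, 125 and 35.8 CPM in EA-BN-H, 132, 87.8 and 146 CPM in COPD, and 19.1, 72.5 and 80.3 CPM in NC. COPD libraries all lay above NC, with the nearest 2 at 87.8 and 80.3 CPM, and EA-BN-H spanned both groups. The log2 fold change of COPD against NC was 1.09 (SE 0.56, p 0.0786, edgeR adjusted p 0.386) and was 0.68 without NC replicate 1. Markers of mature dendritic cells also leaned higher in COPD against NC. Of 10, 9 had a positive log2 fold change, and Relb (1.30, edgeR adjusted p 0.0397) and Fscn1 (1.42, adjusted p 0.0486) were called. Their summed level was 157 to 182 CPM in EA-BN-H, 149 to 163 CPM in COPD and 116 to 127 CPM in NC. NC replicate 1 and COPD replicate 2 had the lowest Lamp3 of their groups but the highest dendritic marker sums, 127 and 163 CPM. The part of dendritic cells in the Lamp3 values was not tested.

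Slc34a2, the sodium-phosphate cotransporter that takes up phosphate released from surfactant, had 473, 563 and 246 CPM in EA-BN-H, 723, 656 and 611 CPM in COPD, and 171, 466 and 538 CPM in NC. COPD stood above both other groups with no overlap. Its log2 fold change of COPD against NC was 0.76 (SE 0.43, edgeR adjusted p 0.443) and was 0.40 without NC replicate 1. Lpcat1, the acyltransferase that makes the dipalmitoyl form of phosphatidylcholine, had 112, 98.8 and 62.6 CPM in EA-BN-H, 165, 146 and 146 CPM in COPD, and 51.5, 155 and 155 CPM in NC. NC replicates 2 and 3 sat within the COPD range, and the log2 fold change was 0.34 (SE 0.38, edgeR adjusted p 0.748), or -0.02 without NC replicate 1. Etv5, an ETS transcription factor downstream of FGF signalling that maintains type 2 identity in mice, had 40.3, 29.5 and 25.1 CPM in EA-BN-H, 65.5, 62.2 and 61.8 CPM in COPD, and 16.2, 51.2 and 61.2 CPM in NC. COPD did not overlap NC, although the lowest COPD library and NC replicate 3 were close, at 61.8 and 61.2 CPM. The log2 fold change of COPD against NC was 0.56 (SE 0.40, edgeR adjusted p 0.563), or 0.17 without NC replicate 1 and 0.91 without NC replicate 3.

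In all, COPD and NC did not overlap for 6 of the 10 genes, with Sftpd, Lamp3, Napsa, Slc34a2 and Etv5 higher in COPD and Sftpb lower. Over all genes tested, 14.3% were higher without overlap and 10.4% lower, 24.7% in either direction. With NC replicate 1 left out, 6 of the 10 genes had a positive log2 fold change in place of 9. Those of Sftpc, Lpcat1 and Abca3 then lay between -0.04 and 0.00. Sftpd (0.79), Sftpa1 (0.67) and Sftpb (-0.57) kept estimates near those of the full set.

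**Figure D3:**
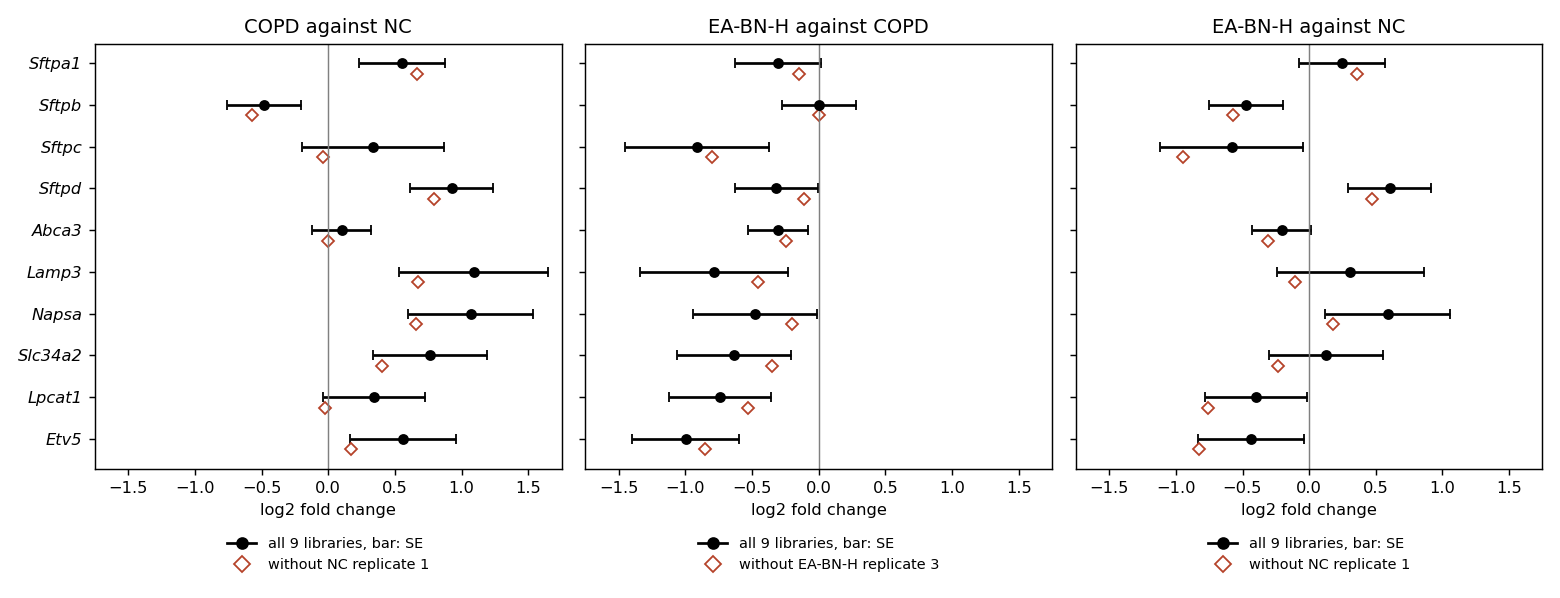
Log2 fold changes of the 10 genes (black points, bars SE) in the 3 comparisons named above the panels, from the fit of all 9 libraries, with open diamonds for the same fit without the library named under each panel. Lamp3 (1.09) and Napsa (1.07) are highest in COPD against NC, Etv5 (-0.998) is lowest in EA-BN-H against COPD, and dropping NC replicate 1 brings Sftpc, Abca3 and Lpcat1 to about 0.

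EA-BN-H against COPD asks whether the extract moved the genes in exposed lungs, and it uses the same COPD libraries as the comparison above. None of the 10 was called by edgeR at an adjusted p under 0.05, and 0.0% of all genes tested were (edgeR 0 genes, DESeq2 3, and 296 at an unadjusted p under 0.05). At an unadjusted p under 0.05, 1 of the 10 passed, Etv5, and 1.58% of all genes did, and 0 of the 10 passed the study's thresholds, which 0.801% of all genes did. The log2 fold change was negative for 9 of the 10, with a median of -0.56, where the median of all genes was 0.00. With shrunken DESeq2 fold changes the median of the 10 was -0.21 and the Etv5 estimate was -0.38, where the median of all genes was 0.01.

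The lowest estimate was that of Etv5, at -0.998 (SE 0.40, p 0.0323, edgeR adjusted p 1), or 0.501 of the COPD level. Its EA-BN-H libraries at 25.1 to 40.3 CPM lay wholly below its COPD libraries at 61.8 to 65.5 CPM. The Etv5 estimate was -0.86 without EA-BN-H replicate 3. Sftpc followed at -0.91 (SE 0.54, p 0.120), with EA-BN-H replicate 1 inside the COPD range. Lpcat1 was at -0.74 (SE 0.38, p 0.0825) and Slc34a2 at -0.63 (SE 0.43, p 0.168), both with every EA-BN-H library below every COPD library. These 3 genes, Etv5, Lpcat1 and Slc34a2, were lower without overlap, as were 3.32% of all genes tested.

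Of the 10 estimates, only that of Etv5 exceeded 2 SEs. Lamp3 stood at -0.78 (SE 0.56), Napsa at -0.48 (SE 0.47), Sftpd at -0.32 (SE 0.31), Sftpa1 at -0.31 (SE 0.32) and Abca3 at -0.31 (SE 0.22). Sftpb was level between the groups, at 0.00 (SE 0.28), with means of 675 ± 169 CPM in EA-BN-H and 674 ± 97.1 CPM in COPD (SD, n = 3 each). Several estimates turned on single libraries. Sftpc was -1.51 without EA-BN-H replicate 1 and -0.58 without EA-BN-H replicate 2, and Lamp3 was -1.48 without EA-BN-H replicate 2 and -0.46 without EA-BN-H replicate 3. Leaving out each of the 9 libraries in turn gave -0.91 to -0.53 for Lpcat1, -0.88 to -0.35 for Slc34a2, -0.65 to -0.20 for Napsa, -0.55 to -0.12 for Sftpa1, -0.53 to -0.11 for Sftpd and -0.42 to -0.23 for Abca3, so these kept their sign. On deposited TPM, in which the 7SL share enters, 8 of the 10 were lower in EA-BN-H without overlap, as were 16.1% of all genes tested, and the median of all genes on log2(TPM + 1) was then -0.44.

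EA-BN-H against NC compares exposed, treated lungs with controls. By edgeR, 0 of the 10 were called, while 1.13% of all genes were; 0 of the 10 passed an unadjusted p under 0.05, while 14.5% of all genes did, and DESeq2 called none of the 10 and 6.93% of the genes to which it gave an adjusted p. None passed the study's thresholds, while 8.3% of all genes did. Estimates were positive for 5 genes and negative for 5, with a median of -0.04, and 50.1% of all genes were positive. EA-BN-H and NC overlapped for all 10, whereas 19.5% of genes tested did not overlap. On deposited TPM, the EA-BN-H libraries lay below all NC libraries for Sftpb and Abca3, as they did for 22.8% of genes tested. Sftpd (0.60, SE 0.31, p 0.0816), Napsa (0.59, SE 0.47) and Lamp3 (0.31, SE 0.55) were the highest, and Sftpc (-0.58, SE 0.54), Sftpb (-0.48, SE 0.28) and Etv5 (-0.44, SE 0.40) the lowest. Without NC replicate 1, Etv5 came to -0.83, Lpcat1 to -0.76 and Sftpc to -0.95, Napsa came to 0.18, Lamp3 (-0.11) and Slc34a2 (-0.23) changed sign, and the median of the 10 was -0.27. Without EA-BN-H replicate 1, Sftpc was at -1.18, and without EA-BN-H replicate 2 it was at -0.25 and Lamp3 at -0.39.

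Ratios within a library do not depend on scaling between libraries. Sftpb was taken as the denominator after its levels had been seen, so the ratios are a description. Sftpd per Sftpb was 0.810, 1.12 and 0.549 in EA-BN-H, 1.02, 0.786 and 1.23 in COPD, and 0.353, 0.419 and 0.348 in NC. All 6 exposed lungs lay above all 3 controls, NC replicate 1 was not apart from the other NC libraries, and the geometric mean was 2.13 times that of NC in EA-BN-H and 2.67 times that of NC in COPD. Sftpa1 per Sftpb was 2.07, 2.46 and 1.51 in EA-BN-H, 2.70, 1.74 and 2.98 in COPD, and 1.59, 1.05 and 1.02 in NC. COPD lay above NC for this ratio, and EA-BN-H overlapped both.

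Sftpc per Sftpb was 0.955, 0.462 and 0.590 in EA-BN-H, 1.60, 1.29 and 1.04 in COPD, and 0.364, 0.858 and 1.01 in NC. COPD was the highest group here, with no overlap with either other group. The lowest COPD value and the highest NC value were close, at 1.04 and 1.01. Etv5 per Sftpb was 0.0477, 0.0583 and 0.0372 in EA-BN-H, 0.0857, 0.0907 and 0.108 in COPD, and 0.0198, 0.0452 and 0.0705 in NC, and COPD was again apart from both. All 9 other genes had a higher ratio to Sftpb in COPD than in NC without overlap, where 28.2% of the other 18715 genes tested did. In EA-BN-H against COPD, the ratios of Sftpc, Lpcat1 and Etv5 to Sftpb were lower without overlap, as were 1.19% of genes. In EA-BN-H against NC, only that of Sftpd was higher without overlap, as were 23.8% of genes.

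**Figure D4:**
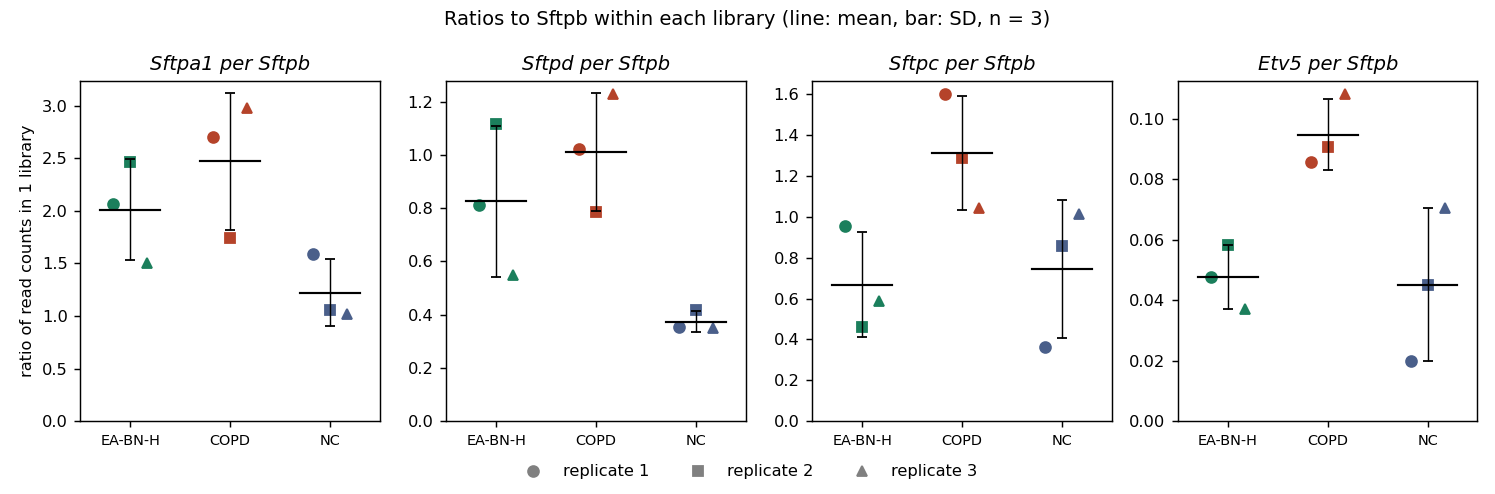
Ratios of read counts to Sftpb within each library for Sftpa1, Sftpd, Sftpc and Etv5, with EA-BN-H left of COPD and NC; shapes give the replicate, lines the mean and bars the SD (n = 3). Sftpd per Sftpb is 0.549 or more in every exposed lung, against 0.348 to 0.419 in NC, while Sftpc per Sftpb and Etv5 per Sftpb are highest in COPD.

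Set against other epithelium, summed counts of the 10 genes per summed count of 14 pan-epithelial markers were 6.17, 5.19 and 3.67 in EA-BN-H, 7.49, 7.71 and 6.31 in COPD, and 2.88, 5.72 and 6.01 in NC. COPD was higher than either other group without overlap, by narrow gaps to EA-BN-H replicate 1 and NC replicate 3. The 14 pan-epithelial markers themselves had negative estimates for 10 in COPD against NC (median -0.39). In EA-BN-H against COPD 12 of them were positive (median 0.11), and their part in this ratio was not tested. Per alveolar type 1 marker count the sums were 3.60, 3.22 and 3.99 in EA-BN-H, 4.16, 3.15 and 4.42 in COPD, and 4.66, 2.54 and 2.59 in NC, and the groups overlapped. NC replicate 1 was the highest library by this measure, since its type 1 marker sum was lower still.

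Over the 9 libraries the 10 genes did not move as a block. Log2 CPM of Lpcat1 and Etv5 had a Pearson r of 0.97, that of Napsa and Slc34a2 0.95 and that of Sftpc and Abca3 0.94, whereas Sftpb had an r of -0.13 with Sftpa1, -0.30 with Sftpd and -0.37 with Lamp3. These values describe 9 libraries that share groups, depth and tissue sampling, and no test was made of them. Among 14600 genes with a mean of at least 50 counts, those most like Sftpc were Rflnb (r = 0.98), Lgi3, another type 2 marker (0.97), Slc6a2 (0.97), Arrb1 (0.95) and Nrn1 (0.95). Those most like Sftpb were Gsn (0.96), Pink1 (0.96), Zfyve21 (0.96), Cavin2 (0.95) and Otud7b (0.94).

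Reads were divided among annotated transcripts for 5 of the 10 genes. The main Sftpb transcript held 84.5% to 88.9% of Sftpb reads in EA-BN-H, 84.3% to 86.8% in COPD and 84.8% to 86.1% in NC, so its makeup was steady. The main Lpcat1 transcript held 86.8% to 97.0% over the 9 libraries. Abca3 reads moved between 4 transcripts, and the same one held 99.6% of them in NC replicate 2 and 0.6% in NC replicate 3. One Etv5 transcript likewise held 2.9% to 95.2%. Shares this uneven occurred within 1 group, so only gene sums are compared here. Abca3 overlaps Abca17 and D330041H03Rik at its ends, with 502 and 257 reads against 103756 for Abca3 over all libraries, and Slc34a2 overlaps Gm17182, with 199 reads against 139369. Whether the counting used strand is not given in the sources used here.

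Around these genes, the lipid supply was tested with 16 genes of fatty acid and phosphatidylcholine synthesis. In COPD against NC 1 was called higher, none lower, and 11 were positive with a median log2 fold change of 0.12. Without overlap, 3 of the 16 were higher and 1 was lower, where 14.3% and 10.4% of all genes tested were. The called gene was Fabp5, a fatty acid carrier also made by macrophages (2.84, SE 0.42, edgeR adjusted p 0.0235). Chpt1, which makes phosphatidylcholine from diacylglycerol, had -1.04 (SE 0.23, adjusted p 0.056), and Fasn, the fatty acid synthase, 0.74 (SE 0.25, adjusted p 0.174). Between EA-BN-H and COPD, none was called and 12 of 16 were negative, with the lowest p-values at the desaturase Scd1 (-1.26, SE 0.38, p 0.00747), at Acaca (-0.54, SE 0.20, p 0.0206) and at Fasn (-0.58, SE 0.25, p 0.0385). These 3 were lower in EA-BN-H without overlap, as were 3.32% of all genes tested, and 1 other gene of the 16 was higher without overlap.

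Of 15 genes of lamellar body formation and protein processing, none was called in COPD against NC and 12 were positive with a median of 0.37. Without overlap, 7 of the 15 were higher and 2 lower, where 14.3% and 10.4% of all genes tested were. Ctsh, which also trims SP-B and SP-C precursors, had 0.97 (SE 0.27, edgeR adjusted p 0.110), Npc2 0.76 (SE 0.24, adjusted p 0.148) and Ctsd, a lysosomal protease abundant in macrophages, 1.23 (SE 0.36, adjusted p 0.128). Rab38, a GTPase of lamellar body biogenesis, had -1.13 (SE 0.39, adjusted p 0.186). Between EA-BN-H and COPD, 11 of the 15 were negative with a median of -0.12 and none was called. Of 4 tested receptors and regulators of secretion, 3 were positive in COPD against NC with a median of 0.14, and none was called. The highest was P2ry2, the ATP receptor that triggers surfactant secretion, at 1.67 (SE 0.41, edgeR adjusted p 0.0732). The summed level of the 4 was 864 to 1093 CPM in COPD and 944 to 1125 CPM in NC.

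Transcription factors of type 2 cells mostly had negative estimates in COPD. Of 13 tested, 12 had a negative log2 fold change against NC with a median of -0.51, and none was called by edgeR. COPD was lower than NC without overlap for 5 and higher for 1, where 10.4% and 14.3% of all genes tested were. Nfib had -0.69 (SE 0.19, adjusted p 0.0938), Elf5 -1.04 (SE 0.31, adjusted p 0.126), Foxp2 -0.92 (SE 0.30, adjusted p 0.158) and Foxa1 -0.79 (SE 0.36, adjusted p 0.329). Nkx2-1 was at -0.18 (SE 0.32). Their summed level was 433 to 562 CPM in EA-BN-H, 483 to 564 CPM in COPD and 639 to 692 CPM in NC. Markers of club and ciliated cells, which share several of these factors, also had negative estimates in COPD: 9 of 10 club and 10 of 10 ciliated markers had negative estimates, with medians of -0.95 and -0.45 and none called, and their part was not tested.

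FGF signalling, which lies above Etv5, showed no common direction, with 4 of 12 genes positive in COPD against NC and a median of -0.10. Spry4, a feedback inhibitor of FGF receptors, had 1.17 (SE 0.44, p 0.0239, edgeR adjusted p 0.234) and Etv1, an ETS factor related to Etv5, -0.86 (SE 0.35, p 0.0314, adjusted p 0.267). The ligands Fgf7 and Fgf10 had -0.92 (SE 0.38) and -0.97 (SE 0.41). In EA-BN-H against COPD none was called, and 6 of the 12 were positive and 6 negative with a median of 0.00. Spry4 had the lowest estimate of the 12, at -0.79 (SE 0.44, p 0.0996).

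Other markers of type 2 cells split in sign in COPD against NC and all had negative estimates in EA-BN-H against COPD. In COPD against NC 10 of 14 were positive with a median of 0.12. Without overlap, 3 were higher and 2 lower, where 14.3% and 10.4% of all genes tested were. Chil1, a chitinase-like protein also made by macrophages and neutrophils, was called (2.47, SE 0.49, edgeR adjusted p 0.0407). Il33, an alarmin stored in type 2 cell nuclei, had 1.40 (SE 0.54, adjusted p 0.246), and S100g, a calcium-binding protein, -1.09 (SE 0.44, adjusted p 0.273). Between EA-BN-H and COPD, the median of the 14 was -0.64 and none was called. Of the 14, 4 were lower without overlap, as were 3.32% of all genes tested. Summed levels of the 14 overlapped, at 1311, 2279 and 929 CPM in EA-BN-H and 2371, 1139 and 1946 CPM in COPD. S100g had -1.34 (SE 0.46, p 0.0154), Mlc1 -1.28 (SE 0.60, p 0.0591) and Hc -1.10 (SE 0.52, p 0.0615). Alveolar type 1 markers were negative for 11 of 12 in that comparison with a median of -0.22, and endothelial markers for 10 of 10 with a median of -0.42, so negative estimates there were not restricted to type 2 genes. Without EA-BN-H replicate 3, which had the lowest alveolar type 1 and endothelial sums of its group (790 and 497 CPM), the median over the 10 surfactant and type 2 genes was -0.30, against -0.56 with it.

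Genes of the damage-associated transitional state that type 2 cells enter leaned to higher estimates in COPD. Of 14 tested, 9 were positive against NC, with a median log2 fold change of 0.55. Without overlap, 8 were higher and 1 was lower, where 14.3% and 10.4% of all genes tested were. The 2 called were Lrg1 (2.89, edgeR adjusted p 0.0267) and Lcn2 (5.37, adjusted p 0.0337), both of which neutrophils or other inflamed epithelium also make. Krt8, the keratin that names the state, had -0.06 (SE 0.33), and Cldn4 had -0.30 (SE 0.39). In EA-BN-H against COPD 11 of 14 were negative and none was called, with Areg, an EGF receptor ligand, at -0.99 (SE 0.43, p 0.0445).

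Among the 7 pathway lists around the 10 genes, surfactant clearance by macrophages had the highest median in COPD against NC, while the marker lists of monocytes with recruited macrophages (3.19) and neutrophils (2.22) were higher still. Of 11 genes, 10 were positive in COPD against NC with a median of 1.74. The cytokine receptor subunit genes Csf2rb2 (4.36, SE 0.62, edgeR adjusted p 0.0235) and Csf2rb (3.28, SE 0.63, adjusted p 0.037) were called. Abcg1, a lipid exporter of macrophages, had 1.74 (SE 0.45, adjusted p 0.088), and Pparg, a regulator of alveolar macrophage lipid handling that other lung cells also make, -0.81 (SE 0.31, adjusted p 0.249). Their summed level was 291 to 729 CPM in EA-BN-H, 408 to 591 CPM in COPD and 136 to 247 CPM in NC. Markers of monocytes and recruited macrophages moved with them, and 8 of 10 were called higher in COPD against NC. Their sums were 216 to 693 CPM in EA-BN-H, 274 to 641 CPM in COPD and 51.2 to 71.5 CPM in NC. Of 8 tested alveolar macrophage markers, a list that shares Marco with the 11, 5 were positive and 1 was called, with a median of 0.57. These summed to 108 to 228 CPM in EA-BN-H, 142 to 269 CPM in COPD and 67.5 to 114 CPM in NC. The part of either cell type was not tested. In EA-BN-H against COPD none of the 11 was called and the median was -0.07. The calls given for these lists are from the fit of all 9 libraries. The count of called genes in COPD against NC, 299 in all, came to 0 or 1 without COPD replicate 1, COPD replicate 3 or any 1 NC library. It was 256 without COPD replicate 2, and 262, 996 and 418 without EA-BN-H replicates 1, 2 and 3.

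**Figure D5:**
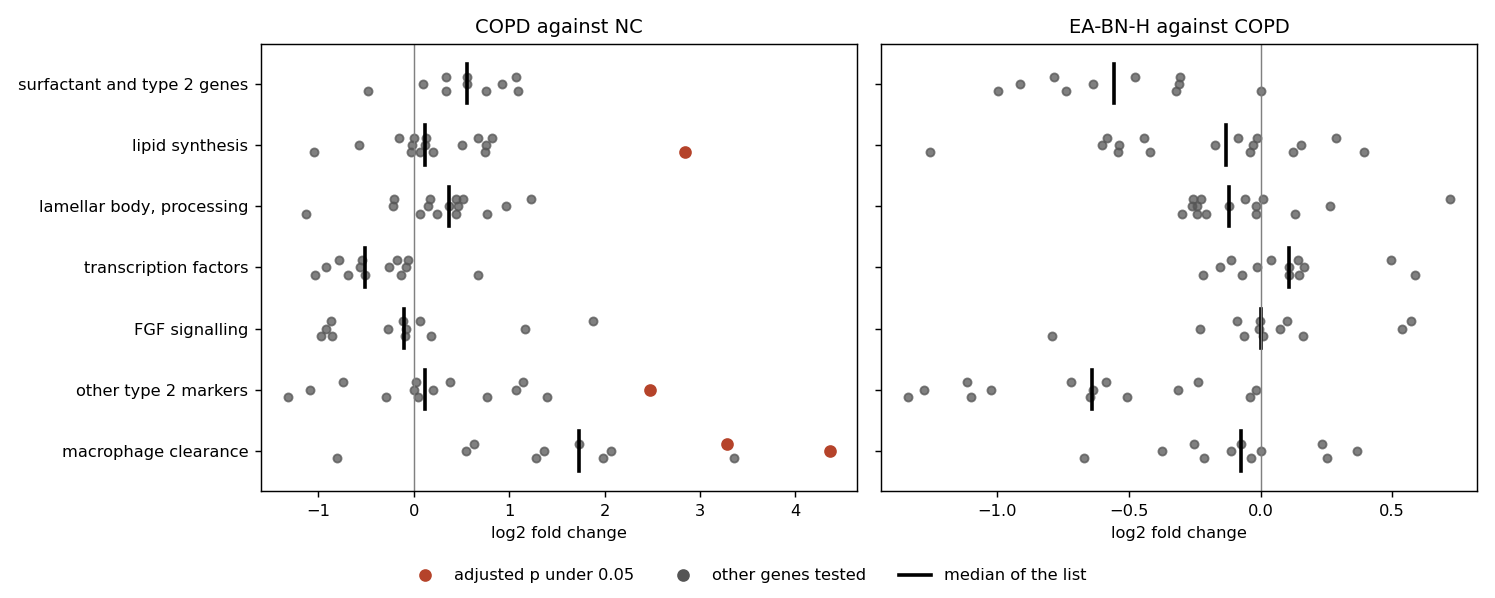
Log2 fold changes of the 10 surfactant and type 2 genes and of 6 surrounding gene lists in COPD against NC (left) and EA-BN-H against COPD (right); each point is a gene, red points passed an adjusted p under 0.05, and black bars are list medians. Red points are Fabp5, Chil1, Csf2rb and Csf2rb2 in COPD against NC only, 12 of 13 transcription factors lie left of 0 (median -0.51), and other type 2 markers lie left of 0 in EA-BN-H against COPD (median -0.64).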

How the data were processed

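Lung RNA from 9 libraries, 3 each of EA-BN-H, COPD and NC, was read from the table the authors deposited for the mm10 build. As deposited by the authors, it gives per RefSeq transcript an estimated count that is already a whole number and not normalized, made from trimmed and aligned reads, and 0 value columns were left unmatched to a sample. The FPKM and TPM values the authors deposited beside them take the length of each transcript and the size of each library into account. Tools named in the submitters' processing notes are HISAT2 2.1.0, StringTie 2.1.3b, Trimmomatic 0.38 and DESeq2, and their sample records a stranded total RNA kit, whereas the paper's methods name HTSeq. No reads were reprocessed.

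Estimated counts were summed by gene ID. Genes were kept by filterByExpr of edgeR 4.0.16 (R 4.3.3), scaled by TMM and tested with glmQLFit (robust) and glmQLFTest in 1 fit of all groups with no covariate, with Benjamini-Hochberg adjustment. The common coefficient of variation was 0.438. The fitting code was tested on simulated data. CPM are TMM-scaled, and correlations use log2 CPM with a prior count of 2. Alternatives were DESeq2 1.42.0, limma 3.58.1 on log2(TPM + 1) and log2(FPKM + 1), other scalings and filters, a replicate block and the omission of each library. With at least 469 reads per gene and library for the 10 genes, counting error is small beside the spread between libraries.

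The 10 genes and all gene lists were chosen with earlier results of these data known. All 10 genes are named. From each other list, genes with the lowest unadjusted p in COPD against NC or in EA-BN-H against COPD were named, up to 4 of each. Ratios to Sftpb and a few named list genes (Nkx2-1, Krt8, Cldn4) were chosen after their values were seen. The named likeness genes are the 5 with the highest Pearson correlation with Sftpc or Sftpb.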

Additional observations from a re-analysis of the deposited data

How the results depend on the processing

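The 30 log2 fold changes of the 10 genes were recomputed under 22 alternatives, and of these 660 values 633 kept their direction and their side of the threshold, 25 changed direction and 2 crossed the threshold. Both crossings were Sftpd in COPD against NC, so 1 gene was called with DESeq2, with or without shrunken fold changes, in place of 0. At the study's thresholds the count in COPD against NC was 1 and came to 2 with the DESeq2 Wald test and to 0 with shrunken fold changes, library totals, nuclear protein-coding genes only, a mean CPM of at least 1 or the replicate block, and ranged from 0 to 2 when 1 library was left out. In EA-BN-H against COPD it was 0 and came to 3 with library totals, 1 without a filter, 6 on log2(TPM + 1) and 3 on log2(FPKM + 1), with 0 to 2 when 1 library was left out. In EA-BN-H against NC it was 0 and came to 2 on log2(TPM + 1). With library totals, log2(TPM + 1) and log2(FPKM + 1) the median of all genes in EA-BN-H against COPD was -0.41, -0.44 and -0.28, against 0.00 with TMM, and changes there are to be read relative to it. On deposited TPM, groups did not overlap for 8 genes in EA-BN-H against COPD, in place of 3, and for 2 in EA-BN-H against NC, in place of 0, where 16.1% and 22.8% of all genes were lower without overlap on TPM.

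Changes of direction were few. Sftpb in EA-BN-H against COPD, 0.0020, became -0.0032 with shrunken fold changes, -0.0016 without a filter, -0.43 with library totals, -0.79 on TPM and -0.46 on FPKM, and ranged from -0.19 to 0.17 when 1 library was left out. In EA-BN-H against NC, library totals, TPM and FPKM gave -0.089, -0.48 and -0.18 for Sftpa1 and -0.15, -0.49 and -0.20 for Slc34a2. TPM gave -0.11 for Sftpd, and TPM and FPKM gave -0.28 and -0.048 for Lamp3. Leaving out 1 library gave -0.39 to 0.65 for Lamp3 and -0.23 to 0.42 for Slc34a2 in EA-BN-H against NC, and -0.037 to 0.61 for Sftpc, -0.00084 to 0.20 for Abca3 and -0.023 to 0.56 for Lpcat1 in COPD against NC. An alternative chosen after seeing the data, without NC replicate 1 and EA-BN-H replicate 3, gave -0.024 for Sftpc and -0.010 for Lpcat1 in COPD against NC and 0 genes at the study's thresholds. Another chosen after seeing the data, a quasi-likelihood fit without robust spread, changed no call among the 10.

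Over all genes, 299 calls in COPD against NC came to 1402 with DESeq2, 724 in a fit of only those groups, 95 with library totals, 3 on TPM and 2 on FPKM, and 211 calls in EA-BN-H against NC to 1295, 0, 5, 11 and 2. Same-numbered libraries did not deviate together (residual correlations of -0.38 to 0.21), so the numbers were not taken as pairs; with the replicate block, 0 of the 10 genes and 0 genes overall were called. With 3 libraries per group and a coefficient of variation of 0.21 to 0.47 for the 10 genes, even differences of about 1 on the log2 scale are hard to call. Lamp3 (1.09) and Napsa (1.07) in COPD against NC were not called by edgeR. A missed threshold does not show equal levels.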
